A study of Caenorhabditis elegans with 4 samples.

Results

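Of the 960 regions in the combined peak list for SMA-9::GFP in Caenorhabditis elegans L2 larvae, 344 lay in the centres of autosomes II, III, IV and V. A peak was placed in a centre by the position of its midpoint, between WS220 positions 4879000 and 12020000 on II, 3722000 and 10340000 on III, 3896000 and 12970000 on IV, and 5897000 and 16550000 on V, bounds included. No measured binding value entered this choice. The other 204 combined peaks of these 4 chromosomes lay outside these bounds, towards the chromosome ends, and are called arm peaks here. The arms so defined include the chromosome tips. No peak of the list straddled a bound.

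Chromatin immunoprecipitation and sequencing was done on hermaphrodites of strain OP130, raised at 20 degrees Celsius and harvested as L2 larvae, with antibodies to GFP. The strain carries the transgene wgIs130, which holds unc119 and the construct sma-9::TY1 EGFP FLAG C, in an unc119(ed3) background. The transgene was introduced by bombardment and tags SMA-9 at its C terminus, and all 4 libraries, 2 ChIP and 2 input, came from this strain. No library lacked the tag, so binding was measured for the tagged protein only, from whole larvae. The labels number the libraries as replicates without saying whether these were separate cultures. There were 3 peak lists, 1 for each ChIP replicate (517 and 89 peaks) and the combined list, each giving positions and a q-value per peak from the caller PeakSeq. Sequencing depth was unknown, and no list or signal from the input libraries was used here.

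SMA-9 is a zinc-finger protein related to Drosophila Schnurri. It acts in the nucleus with the Smad proteins of the worm's BMP-like Sma/Mab pathway, in which the ligand DBL-1 signals through the receptors SMA-6 and DAF-4 to control body size, and it is also known for its role in patterning the postembryonic mesoderm and the male tail. Each C. elegans autosome has a central domain where meiotic crossovers are rare, flanked by arms where they are frequent. The centres are known to be richer in conserved and essential genes, and the arms in repeats.

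SMA-9::GFP peaks were denser in the centres than in the arms. The centres held 10.3 combined peaks per Mb (95% exact Poisson interval 9.22 to 11.4) over 33.5 Mb, and the arms 6.06 per Mb (5.26 to 6.95) over 33.7 Mb, a ratio of 1.70 (1.42 to 2.03). Thus 62.8% of the peaks of II to V (58.6 to 66.8) lay in 49.9% of their span, where 273 would fall in proportion to length (two-sided exact binomial test, p = 1.40e-09). The ratio was similar in the replicate lists. It was 1.75 (1.41 to 2.19) for replicate 1, with 230 centre and 132 arm peaks (exact binomial test, p = 2.20e-07), and 1.78 (1.08 to 3.00) for replicate 2, with 46 and 26 (exact binomial test, p = 0.0183). These tests treat peaks as independent and their p-values are too small where peaks cluster. After peaks with gaps under 5 kb were merged into 1 region, 278 centre and 180 arm regions remained, with a ratio of 1.55 (1.28 to 1.88; exact binomial test, p = 3.47e-06). The merged regions were treated as independent too, so this p-value is also too small where regions cluster.

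**Figure D1:**
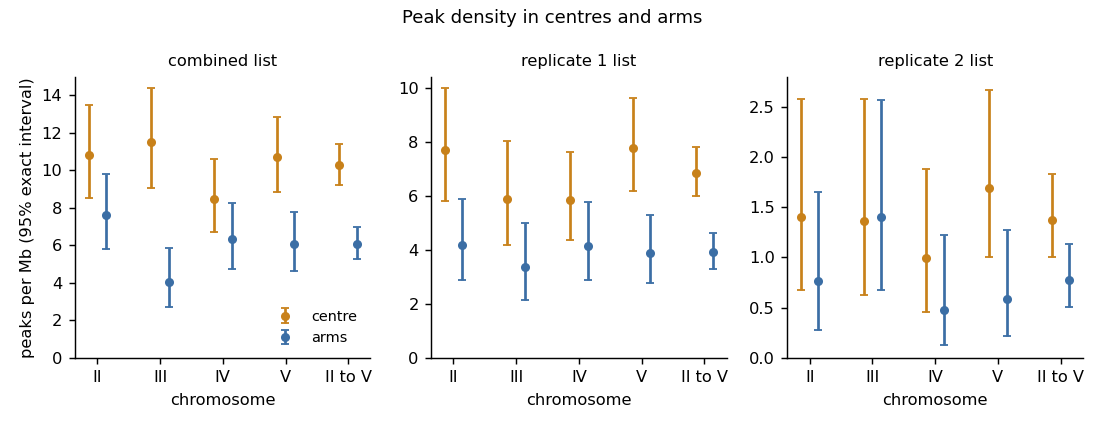
Peaks per Mb (y axis, from 0, with its own scale in each panel) in the centres and arms of chromosomes II, III, IV and V and over all 4 (x axis), for the combined, replicate 1 and replicate 2 lists. Points are counts divided by length and bars are 95% exact Poisson intervals; over II to V the centre lies above the arms in each list (10.3 against 6.06, 6.87 against 3.92 and 1.37 against 0.772), while on III the replicate 2 points coincide (1.36 and 1.40).

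Chromosomes III and V passed the test singly, and II and IV did not. On III the centre held 76 peaks and the arms 29, or 11.5 against 4.06 per Mb, a ratio of 2.83 (1.82 to 4.51; exact binomial test, adjusted over the 4 chromosomes, p = 2.56e-06). On V there were 114 and 62 peaks, or 10.7 against 6.05 per Mb, a ratio of 1.77 (1.29 to 2.45; adjusted exact p = 5.49e-04). The ratio was 1.42 (0.998 to 2.02) on II, with 77 and 60 peaks (adjusted exact p = 0.0650), and 1.34 (0.936 to 1.95) on IV, with 77 and 53 (adjusted exact p = 0.114). Differences between the chromosomes' ratios were not tested, and their intervals overlap.

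On III the ratio was lower in each replicate list than in the combined list, a difference that was not tested. Replicate 1 listed 39 peaks in that centre and 24 in its arms, a ratio of 1.76 (1.03 to 3.05; adjusted exact p = 0.0423). Replicate 2 listed 9 and 10, a ratio of 0.972 (0.350 to 2.66; adjusted exact p = 1.0), and the combined peaks of III that were in both lists gave 1.26 (0.363 to 4.54; adjusted exact p = 0.784). The combined peaks of III in neither list, a set chosen after the data were seen, numbered 43 in the centre and 12 in the arms. Their ratio was 3.87 (2.01 to 8.06; adjusted exact p = 3.43e-05). The III centre also had the most combined peaks for each replicate 1 peak, 1.95, against 1.37 to 1.45 in the other centres. On V the replicate 2 list kept the direction without passing the test after adjustment, with 18 centre and 6 arm peaks and a ratio of 2.88 (1.10 to 8.88; adjusted exact p = 0.0931). On II the replicate 1 list alone did pass it, with 55 and 33 peaks and a ratio of 1.84 (1.17 to 2.93; adjusted exact p = 0.0107).

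Centres were also set against each arm singly. On III the left arm had 3.49 peaks per Mb and the right arm 4.67, both below the 11.5 of its centre. On II the left arm had 6.56, while the right arm, with 9.31 (6.19 to 13.5), was close to the 10.8 of the centre (8.51 to 13.5). On IV the left arm had 7.70 (5.20 to 11.0) beside 8.49 (6.70 to 10.6) in the centre, and the right arm had 5.11. On V the arms had 7.29 on the left and 4.37 on the right. The intervals of centre and adjoining arm overlapped for the right arm of II, the left arm of II, both arms of IV and the left arm of V, and were separate for both arms of III and the right arm of V.

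The 4 centres carried peaks roughly in proportion to their length. IV was the sparsest, with 22.4% of the centre peaks (18.1 to 27.2) in 27.1% of the length, a shortfall that missed the threshold (exact binomial test, adjusted p = 0.208). II had 22.4% of the peaks for 21.3% of the length (adjusted exact p = 0.645), III 22.1% for 19.8% (adjusted exact p = 0.558) and V 33.1% for 31.8% (adjusted exact p = 0.645). Among the better-scoring 50% of the list, the IV centre held 16.8% (11.5 to 23.2) of the centre peaks, which did pass (adjusted exact p = 0.00786), and at a q of at most 0.001 it held 18.3% (adjusted exact p = 0.0253).

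How evenly the peaks were spread within a centre is described by chromosome, from 6 to 10 windows each, and differences were not tested. In 32 whole windows of 1 Mb counted from each left bound, the number of peaks ran from 2 to 19 with a median of 10.5. II was the most even, with 9 to 14 peaks in each of its 7 windows and a variance 0.364 times the mean. V was the least even, with 2 to 19 peaks in 10 windows and a variance 3.91 times the mean. Its 5 windows from 9897000 to 14896999 held 14 to 19 peaks each, the 3 windows before them 3 to 6, the first window of the centre 14, and the last whole window, from 14897000, 2. On III the windows held 8 to 18 and on IV 2 to 15, with variances 1.20 and 2.31 times the mean.

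**Figure D2:**
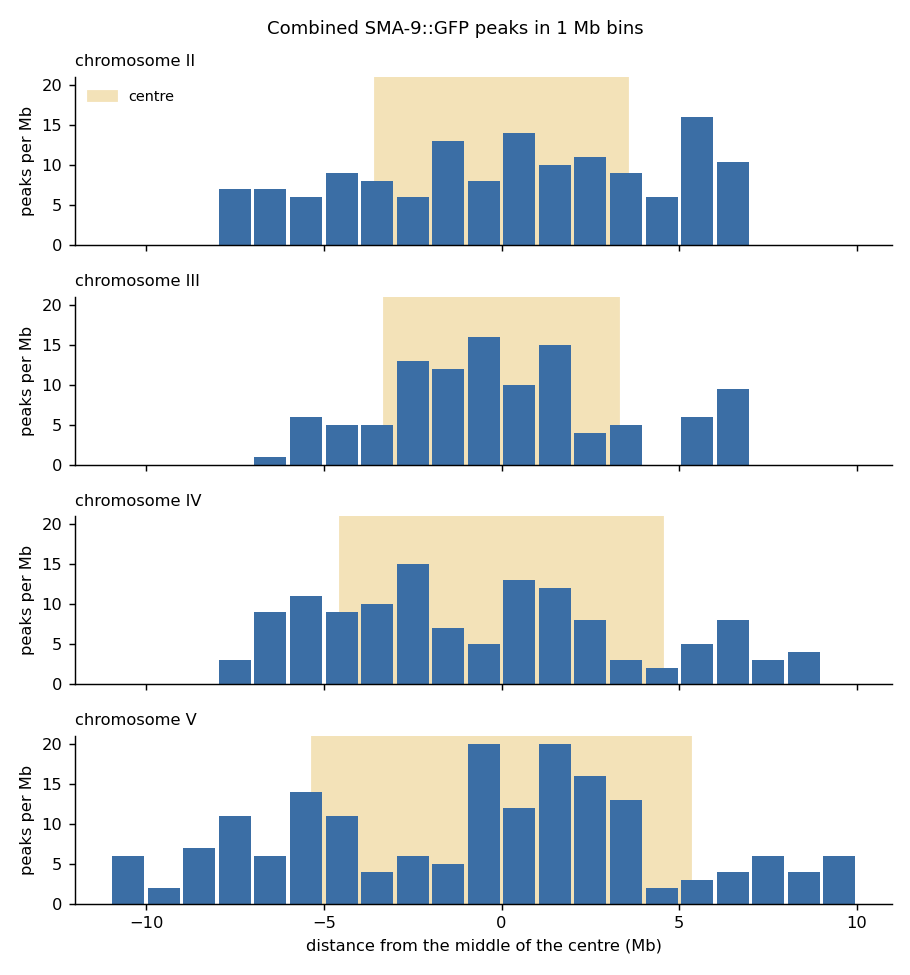
Combined peaks per Mb (y axis) in bins of 1 Mb along chromosomes II, III, IV and V, by distance from the middle of the centre in Mb (x axis), with the centre shaded. Bins under 0.5 Mb at chromosome ends are left out; in the V centre a sparse stretch lies left of the middle, and the IV centre is sparse towards its right bound.

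With each centre divided into 3 equal parts, the middle parts held 12.3 peaks per Mb over the 4 chromosomes (10.3 to 14.5), against 9.32 (7.61 to 11.3) in the left and 9.23 (7.53 to 11.2) in the right parts. The middle part was the densest on V, with 14.1 per Mb (10.5 to 18.6) beside 6.76 (4.33 to 10.1) on the left and 11.3 on the right, and on III, with 12.7 beside 12.2 and 9.52. On IV it was not, with 10.2 in the middle, 10.6 (7.24 to 14.9) on the left and 4.63 (2.53 to 7.77) on the right. On II the middle and right parts both had 11.8, and the left 8.82. The longest stretch with no combined peak was the right end of the IV centre, from 11956771 to the bound at 12970000, 1013 kb in which neither replicate listed a peak either. The longest such stretches elsewhere were 703 kb on V (from 6545421, with 1 replicate 1 peak), 697 kb on III (from 8922470, with none) and 479 kb on II (from 5891114, with 1 replicate 1 peak).

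The distance from a bound to the closest peak varied widely. The nearest peaks inside the 8 bounds lay 42.6 to 1013 kb from them, with widths of 15 to 481 bp and q-values of 2.14e-09 to 0.00921, and 4 of these 8 were in a replicate list. The nearest outside lay 20.6 to 606 kb away, with widths of 13 to 234 bp and q-values of 1.02e-07 to 0.00931, and again 4 of 8 were in a replicate list. The density ratio over II to V was 1.58 with the bounds moved out by 500 kb and 1.58 with the bounds moved in by 500 kb. With the outer 1 Mb of each arm left out, which takes away the tips, it was 1.63 (1.35 to 1.97).

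Centre peaks resembled arm peaks in width and q-value. The median width was 152 bp (interquartile range 50 to 270) in the centres and 141.5 bp (51 to 262) in the arms, and peaks under 50 bp made up 24.4% and 24.5%. Median −log10 q was 3.06 (2.50 to 4.04) in the centres and 3.02 (2.44 to 3.71) in the arms. No test was made of these medians, and their 95% exact intervals overlapped, at 127 to 180 bp and 121 to 171 bp for width and 2.97 to 3.20 and 2.83 to 3.08 for −log10 q. The centre peaks covered 64.6 kb, or 1930 bp per Mb, and the arm peaks 39.2 kb, or 1165 bp per Mb, so covered length was higher in the centres too.

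Among the centres, II had the lowest median q-value and IV the highest, differences that were not tested. Median −log10 q was 3.50 on II, 3.00 on III, 2.88 on IV and 3.13 on V. A q of at most 0.001 was reached by 62.3% of the centre peaks on II, 50.0% on III, 44.2% on IV and 57.9% on V. The share was 54.1% over all centre peaks and 53.3% over the whole combined list. At a q of at most 1e-10 the order was another one, with 0 peaks on II, 4 on III, 3 on IV and 4 on V. II thus had the highest share at the looser threshold and none at the stricter one. Median widths were 179 bp on II, 132 on III, 145 on IV and 137 on V, and III had the highest share of peaks under 50 bp, 35.5%, against 19.5% to 23.7% in the other centres. Width and −log10 q rose together across the 344 peaks (Spearman rho 0.485, Pearson r 0.619), as a description of peaks that share their libraries.

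**Figure D3:**
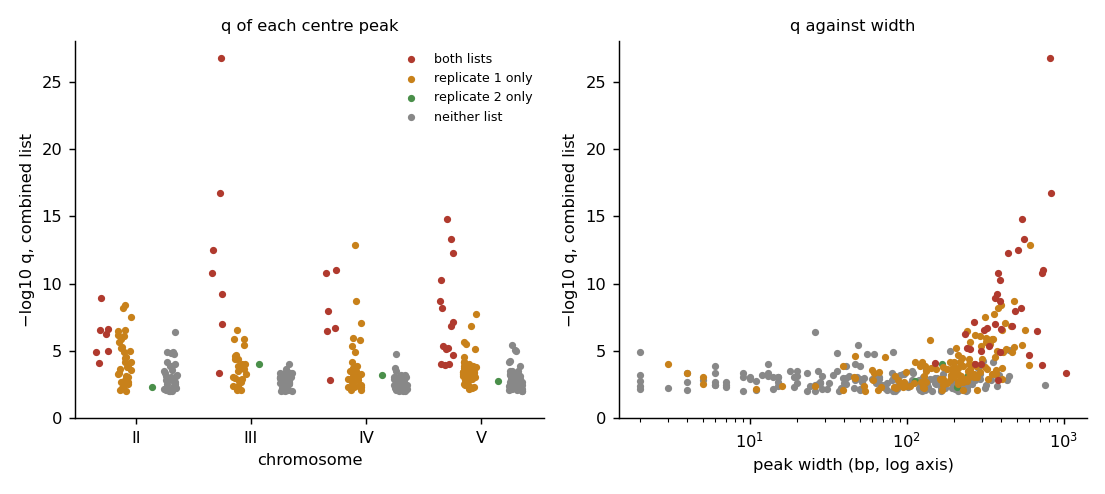
Left, −log10 q in the combined list (y axis) of each of the 344 centre peaks by chromosome (x axis), with colours for the replicate lists that also hold the peak. Right, the same values against peak width in bp on a log axis; the 35 peaks in both lists (red) are at least 152 bp wide, and narrower peaks are mostly in replicate 1 only or in neither list.

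The shares of peaks also found in the replicate lists did not differ detectably between centres and arms. Of the 344, 35 overlapped a peak in both lists by at least 1 bp, which is 10.2% (exact 95% interval 7.19 to 13.9), beside 6.67% over the whole combined list. In the arms the count was 17 of 204, or 8.33% (4.93 to 13.0). The difference of 1.84 percentage points did not pass the test (odds ratio 1.25, interval 0.658 to 2.44; Fisher's exact test, adjusted over 2 tests, p = 0.548), and where the overlap had to cover 50% of each peak it was 0.0969 points. The replicate 1 list held 167 centre peaks, 48.5% (43.2 to 54.0), and 88 arm peaks, 43.1% (36.2 to 50.2), beside 39.8% over the whole list (odds ratio 1.24, interval 0.865 to 1.79; Fisher's exact test, adjusted p = 0.499). The replicate 2 list held 39 centre peaks, 11.3%, beside 7.81% over the whole list. Neither list held 173 of the centre peaks, 50.3% (44.9 to 55.7), beside 59.1% over the whole list. The whole list includes 202 peaks of chromosome I, where replicate 2 listed 1 peak.

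Each shared centre peak had its own partner, with 167 different replicate 1 peaks and 39 different replicate 2 peaks. The share in both lists was 9.09% on II (7 of 77), 9.21% on III (7 of 76), 7.79% on IV (6 of 77) and 13.2% on V (15 of 114), with intervals that overlap widely, the widest apart being 2.91 to 16.2 on IV and 7.56 to 20.8 on V. On each of the 4 chromosomes 1 centre peak was in the replicate 2 list alone. Of the 167 in the replicate 1 list, 35 were in the replicate 2 list too, 21.0% (15.1 to 27.9), and in the arms 17 of 88, 19.3% (11.7 to 29.1).

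Sharing followed the q-value. The centre peaks were ranked by q and split into 4 sets of 86. In the set with the lowest q, up to 9.08e-05, 73 of 86 were in the replicate 1 list and 31 in both lists. In the next set, up to 8.72e-04, these counts were 48 and 3. In the last, from 0.00314, they were 21 and 0. Among the 35 found in both lists, the medians were 392 bp for width and 1.52e-07 for q. The 132 in replicate 1 only had 204.5 bp and 3.44e-04, and the 173 in neither had 68 bp and 0.00191. How the combined list was made is not given in the sources used, and it may share its reads with the replicate lists, so this order is a description and no test was made.

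Seen from the replicate lists, 167 of the 230 replicate 1 peaks in the centres (72.6%) and 39 of the 46 replicate 2 peaks (84.8%) were in the combined list. Median width was 24 bp for the 63 replicate 1 peaks that were not, of which 46 measured under 50 bp. Replicate 2 had 7 such peaks in the centres. Its strongest, IV 11070902 to 11071292 (391 bp), ranked 18 of 89 there with a q of 1.49e-04, and another, III 10224464 to 10225354, was 891 bp wide with a q of 0.00200. These were named after their values were seen. Of the 46 replicate 2 peaks in the centres 36 overlapped a replicate 1 peak, 78.3% (63.6 to 89.1), and of the 26 in the arms 17 did, 65.4% (44.3 to 82.8).

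Chromosome III held the strongest centre peaks listed by both replicates. For the first, III 4281898 to 4282715 (818 bp), q was 1.74e-27 in the combined list, 2.20e-15 in replicate 1 and 6.83e-14 in replicate 2, which placed it at ranks 3, 4 and 2. The peak at III 8801492 to 8802315 (824 bp) had 2.01e-17, 5.89e-13 and 5.01e-05 in the same order of lists. At III 8795502 to 8796011 (510 bp) the values were 3.01e-13, 3.18e-09 and 3.01e-04. These 3 peaks led the III centre in replicate 1 as well, at ranks 4, 5 and 13 of 517. The peak at III 9619012 to 9619737 (726 bp) reached 1.52e-11 in the combined list, with values closer to each other in the replicates, 5.04e-05 (rank 79) in replicate 1 and 2.39e-04 (rank 20) in replicate 2. The widest of all centre peaks, III 7446854 to 7447886 (1033 bp), was also in both lists, with a combined q of only 4.63e-04 beside 3.47e-05 in replicate 1 and 8.11e-05 in replicate 2.

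Chromosome V had 15 centre peaks in both lists, the most of the 4. Its strongest, V 6246352 to 6246891 (540 bp), reached 1.64e-15 in the combined list, 4.15e-10 in replicate 1 (rank 9) and 8.50e-07 in replicate 2 (rank 5). V 10717044 to 10717598 (555 bp) followed with 4.66e-14, 4.58e-07 and 7.48e-06. These ranked 5 and 11 in replicate 2, above all but 1 of the centre peaks on the other chromosomes. V 11799286 to 11799725 (440 bp) had 5.75e-13, 1.31e-08 and 7.64e-04, and V 13081186 to 13081577 (392 bp) had 5.01e-11, 4.67e-07 and 5.01e-04. The widest centre peak on V, at 15434701 to 15435453 (753 bp), was in neither list and had a q of 0.00346.

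On IV the 4 strongest shared peaks had higher q-values in replicate 2 than in replicate 1, as did 34 of the 35 shared peaks over the 4 centres. The exception was also on IV, at 8794966 to 8795643, with 0.00828 in replicate 1 and 6.67e-04 in replicate 2. It was named after its values were seen. IV 6097075 to 6097809, at 735 bp also the widest centre peak there, reached 1.07e-11 in the combined list, 3.53e-08 in replicate 1 (rank 17) and 0.00395 in replicate 2 (rank 51). IV 6881218 to 6881597 (380 bp) had 1.73e-11, 2.75e-06 and 3.72e-04. Next came IV 10252334 to 10252820 (487 bp) with 1.10e-08, 3.71e-06 and 0.00871, and IV 8526050 to 8526373 (324 bp) with 1.94e-07, 2.44e-05 and 0.00950. The last of these ranked 86 of 89 in replicate 2. The lowest q of the IV centre belonged to a peak absent from replicate 2, IV 8527500 to 8528108 (609 bp), at 1.35e-13 in the combined list and 7.54e-10 in replicate 1, named after its value was seen.

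The lowest combined q of a shared peak on II was higher than on the other chromosomes. II 5330139 to 5330501 (363 bp) reached 1.21e-09 in the combined list, 1.15e-06 in replicate 1 (rank 32) and 0.00143 in replicate 2 (rank 32). II 5543451 to 5543846 (396 bp) had 2.32e-07, 3.27e-06 and 0.00728. At II 10551919 to 10552227 (309 bp) and II 10868777 to 10869010 (234 bp) the combined q-values were 2.80e-07 and 5.44e-07, with 0.00848 and 0.00842 in replicate 2. None of the 7 shared peaks of the II centre thus had a replicate 2 q under 0.00143. The widest centre peak on II, at 5336993 to 5337591 (599 bp), was in replicate 1 only, with a combined q of 1.23e-04.

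The 35 peaks in both lists spanned combined q-values between 1.74e-27 and 0.00158, and measured 152 to 1033 bp. Depth was unknown and the lists differ in length, so q-values of different lists may not be on a common scale. On the values as listed, the q was lower in replicate 1 than in replicate 2 for 34 of 35. The combined q was lower than that of replicate 1 for 33 and than that of replicate 2 for 34. The replicate intervals were narrower, with medians of 328 bp in replicate 1 and 257 bp in replicate 2, and lay wholly inside the combined interval for 32 and 33 peaks. Midpoints differed from the combined midpoint by a median of 16 bp in replicate 1 and 34 bp in replicate 2, and by 220 bp at most. Across these peaks −log10 q in the replicates had a Spearman rho of 0.529 and a Pearson r of 0.755, a description of 35 peaks from the same libraries.

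**Figure D4:**
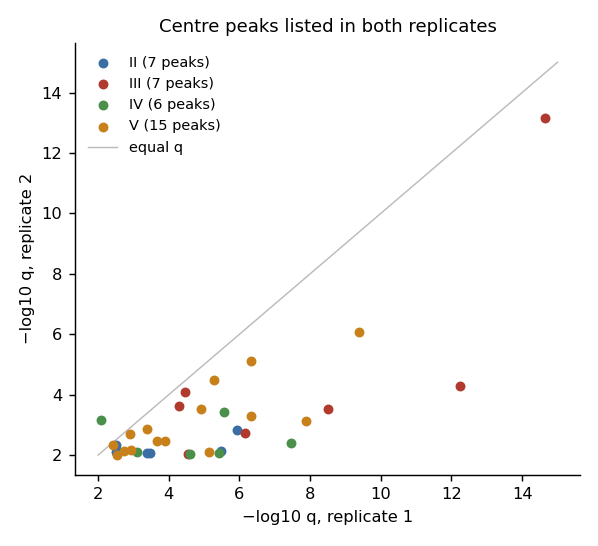
Values of −log10 q in replicate 1 (x axis) and replicate 2 (y axis) for the 35 centre peaks in both lists, coloured by chromosome, with a line of equal q. Of the points 34 lie below the line, and the peak at the upper right is III 4281898 to 4282715. The q-values of the replicate lists may not be on a common scale.

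Some centre peaks with low q-values were in neither replicate list. On II these were 7709600 to 7709625, 26 bp wide with a q of 4.08e-07, and 9284652 to 9284733 (82 bp, 1.20e-05). The first ranked 84 of the 960 combined peaks. On III they were 5137406 to 5137418 (13 bp, 8.91e-05) and 8834405 to 8834537 (133 bp, 2.26e-04), and on IV 9852374 to 9852435 (62 bp, 1.86e-05) and 6839028 to 6839312 (285 bp, 1.77e-04). On V they were 16457767 to 16457815 (49 bp, 3.42e-06) and the wider 10858198 to 10858647 (450 bp, 8.48e-06). Of these 8 peaks, 3 measured under 50 bp, while the 35 peaks in both lists all measured at least 152 bp.

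The centres' share of the strongest peaks was set beside the 62.8% that they held of all combined peaks of II to V. At a q of at most 1e-10, 11 of the 21 combined peaks of II to V were in the centres, 52.4% (29.8 to 74.3), close to the 49.9% that the centres make up of the span. Of the strongest 100 peaks of II to V 71 were in the centres, 71.0% (61.1 to 79.6). These intervals overlap and each holds 62.8%, so a change of the share with the number of peaks taken was not shown. Both sets were chosen on q after the lists had been seen, and no test was made.

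In the combined list, centre peaks also lay closer together than arm peaks. In the replicate 2 list, with only 46 centre and 26 arm peaks, the order was the other way round. The gap from a centre peak to the nearest other combined peak had a median of 16086 bp (interquartile range 2385 to 51781), against 35864.5 bp (6947.5 to 102411) for arm peaks. A gap under 5 kb was found for 113 of the 344, 32.8% (27.9 to 38.1), and for 45 of the 204 arm peaks, 22.1% (16.6 to 28.4). Over the whole combined list the share was 31.5% and the median gap 18718 bp, so the centres were close to the whole list. On X these values were 39.5% and 11501.5 bp. A list with more peaks per Mb has shorter gaps by its density alone, and no test was made beyond that of density. The shares were alike among the centres, at 35.1% on II, 32.9% on III, 31.2% on IV and 32.5% on V. In the replicate 1 list 21.7% of centre peaks and 18.2% of arm peaks had a neighbour of that list within 5 kb. In the sparser replicate 2 list these shares were 4.35% of 46 and 23.1% of 26. In 1 arm stretch, III 1921092 to 1926814, 4 combined peaks with gaps of 751 to 1723 bp were all in the replicate 2 list. That stretch was named after its values were seen. Of the 86 centre peaks with the lowest q 53.5% had a combined peak within 5 kb, against 24.4% to 27.9% in the other sets of 86.

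Runs of at least 3 peaks with each gap under 5 kb numbered 12 in the centres, with 43 peaks (12.5% of the 344), and 2 in the arms, with 7 peaks. That is 0.358 and 0.0594 runs per Mb. A denser list has more such runs by its density alone, and the difference was not tested. V had 6 runs, II 3, III 2 and IV 1. Of the 12, 11 held a replicate 1 peak, 9 a replicate 2 peak and 8 a peak in both lists. Among all centre peaks these shares were 48.5%, 11.3% and 10.2%. A run of at least 3 peaks has more chances to hold such a peak than a single peak has, and no test was made. At least 3 members were in the replicate 1 list, enough for a run, in 5 of the 12. The centre run with no member in either list was V 14830476 to 14831691, with 3 peaks of 6 to 120 bp. Of the 2 arm runs, that at III 1921092 to 1926814 had 4 peaks, all in both lists, with q-values from 2.88e-37 to 9.61e-12.

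**Figure D5:**
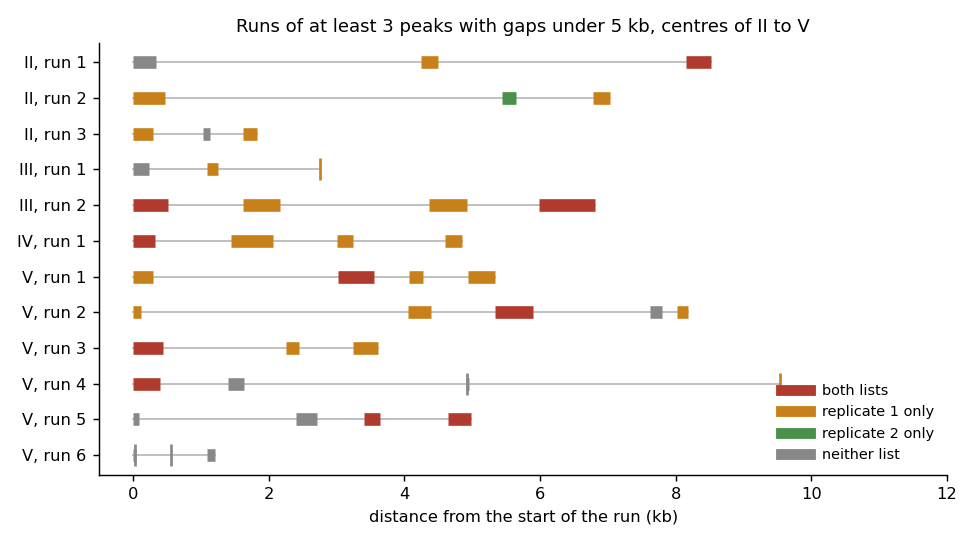
The 12 runs of at least 3 combined peaks with gaps under 5 kb in the centres of II to V, each drawn from its start (x axis, kb), with peaks as blocks coloured by the replicate lists that also hold them. Runs are numbered from left to right on each chromosome, and peaks of 50 bp or less carry a tick so that they can be seen; of the 12 runs, 8 hold a peak in both lists (red).

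The run with the most peaks was V 10711702 to 10719876, 5 peaks in 8175 bp with gaps of 217 to 3926 bp and q-values from 4.66e-14 to 2.24e-04. On III the largest run, 8795502 to 8802315, held 4 wide peaks of 510 to 824 bp, all in replicate 1, with both peaks at its ends in both lists. On IV, 8526050 to 8530901 held 4 peaks, all in replicate 1, of which the first was also in replicate 2. On II the runs had 3 peaks each, and the one with the lowest q, 5321987 to 5330501, had a peak in neither list, 1 in replicate 1 only and 1 in both, in that order. In 5 of the 6 runs on V a single peak or a pair was in the replicate 2 list, and the neighbours were in replicate 1 only or in neither list.

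No peak is given a gene or a sequence, because no genome or annotation of build WS220 was used here, and none of the peaks is placed in a promoter, exon or intron.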

How the data were processed

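Peak lists were used as deposited. Positions are on build WS220, per the file headers, and the source column names PeakSeq. Column 6 of each list holds a q-value per peak, the authors' own value. Ranks and thresholds were taken within a list, and the q-values of shared peaks were also set side by side across lists. The highest q-value was 0.00995 in the combined list, 0.0100 in replicate 1 and 0.00973 in replicate 2. Aligner, versions, threshold, use of input and the making of the combined list are not given in the labels or headers read.

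From these, peaks were assigned to centre or arm by midpoint, floor of the mean of start and end. No chromosome length was used: the span ran to the farthest peak end in any list, and arm densities rest on it. Densities carry exact Poisson and shares exact Clopper-Pearson intervals at 95%, and ratio intervals come from the latter; all cover counting error only. Tests were two-sided exact binomial and Fisher's exact tests at 0.05 with Benjamini-Hochberg adjustment; the overlap and merging steps were tested on simulated data. Gaps run between a peak and the nearest other peak on either side. Per chromosome, the regions named were the 4 lowest q in both lists, the 2 lowest in neither, the widest and the largest run; others are marked. The members, domains and tests were chosen with earlier results of these data known. Python 3.11.15, numpy 2.4.6, pandas 2.3.3, scipy 1.17.1 and matplotlib 3.10.9 were used.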

Additional observations from a re-analysis of the deposited data

How the results depend on the processing

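The higher density of the centres over II to V kept its direction and its side of the threshold in all 13 alternatives, with ratios of 1.54 to 2.07 (exact binomial tests), 2 of which, peaks in at least 1 list and peaks in neither, were chosen after the data were seen. Per chromosome, 43 of 52 values did so. On II the ratio passed the threshold in the better-scoring 50% (2.36), at a q of at most 0.001 (1.96) and among peaks in at least 1 list (2.02). With a single replicate list it was 1.84 in either, which passed in replicate 1 but not in replicate 2 (0.606 to 6.16, adjusted exact binomial p = 0.423). On III it missed the threshold among peaks in both lists (1.26) and in the replicate 2 list (0.972), and passed it in the replicate 1 list (1.76). On V it missed the threshold among peaks in neither list (1.42, adjusted exact binomial p = 0.199) and in the replicate 2 list, with 1.99 to 2.88 over the single lists. On IV it was 1.49, past the threshold, with the bounds moved in by 500 kb. The IV centre's share of centre peaks passed the threshold in the better-scoring 50% (16.8%) and at a q of at most 0.001 (18.3%). The III centre's share went from above to below its 19.8% of the length, never past the threshold, among peaks of 50 bp or more (18.8%), peaks in at least 1 list (19.3%) and with a single replicate list (17.0% to 19.6%). Median width was 246 bp in the better-scoring 50% and 211.5 bp among peaks of 50 bp or more, and median −log10 q 4.03 and 3.22. The share with a near neighbour was 22.7% under 2 kb, 44.2% under 10 kb and 4.35% to 21.7% in single replicate lists, where arms had 23.1% and 18.2%. The replicate 2 list, with only 46 centre and 26 arm peaks, thus reversed the order of centres and arms. None of the 10 alternatives for shares in the replicate lists passed the threshold, and the difference for both lists ranged from 0.0969 to 2.42 points, the lowest where the overlap had to cover 50% of each peak (Fisher's exact test, adjusted p = 1.0). The causes were not tested. No paired analysis was possible because peak lists of the inputs were not analysed here. Depth is unknown, so the 230 and 46 centre peaks of the replicates cannot be set against it.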
